A study of Mus musculus with 8 samples.

Results

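The genes described here are those of the semaphorin, ephrin, netrin and Slit guidance systems, ligands and receptors alike, in muscle stem cells (MuSCs) after denervation. They were picked out by a rule on gene symbols, chosen with earlier results of these data known. Of the 55487 genes of the count table, 72 matched. Of these 72, 62 had 10 or more counts in 3 or more of the 8 libraries, and all 62 were tested among 17454 genes. The other 10 lay under that count limit and are named further on.

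Guidance proteins steer growing axons and migrating cells by attraction or repulsion. Semaphorins act mainly through plexins, with neuropilins as coreceptors for most of the secreted class 3 members, while ephrins are tethered ligands that signal to Eph receptor tyrosine kinases on a neighboring cell. Netrins act through Dcc, neogenin and the Unc5 receptors, and Slit proteins through Robo receptors, and members of all these families are also found outside the nervous system, muscle included.

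The DEN group consisted of young male C57BL/6J mice (genotype label C57BL/6) in which a piece of the sciatic nerve had been cut out on 1 side. In the Sham group, mice of the same kind had the nerve located but left whole. MuSCs were sorted from hind limb muscles 21 days later, with 1 library per mouse and 4 mice per group. The sort took cells that carried α7-integrin but not Sca-1 and not the lineage proteins CD11b, CD31 or CD45. Any other cell with this surface pattern would pass the sort as well. DEN replicate 1, which the study had set aside as an outlier on a plot of all libraries, was kept apart, so that 3 DEN libraries (replicates 2 to 4) were compared with 4 Sham libraries.

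The libraries held 28541080 to 31572843 counts in DEN and 29048620 to 34145854 in Sham, against 26627173 in DEN replicate 1. All 8 MuSC identity markers were expressed, and Pax7, the factor that defines these cells, was at 139, 132 and 157 CPM in DEN replicates 2 to 4, against 152, 114, 131 and 105 CPM in Sham replicates 1 to 4. Among these markers Myf5 (log2 fold change 0.90) and Cdh15 (0.57) were called higher in DEN and none lower. The sum of the 8 markers was 5001 to 5471 CPM in DEN and 4264 to 4860 CPM in Sham, below that of the smooth muscle and pericyte markers given further on. Sums over lists of different genes do not give shares of cells. RNA of other cell types was also present and moved with the groups. Of 15 markers of Schwann cells and other glia, 8 were called higher and 4 lower, and none was at 0 in all libraries. Their summed level was 760 to 1033 CPM in DEN and 974 to 1314 CPM in Sham. Pmp22, which was not called, gave the largest part of this sum in every library, so the sum mainly follows that gene. Of 13 myofiber markers tested, 10 were called higher, among them Mb, Car3, Tnnt3 and Myh2, and 1 lower (sum 1143 to 1232 CPM in DEN, 543 to 762 CPM in Sham). Of 8 erythroid markers, 6 were called lower, led by Hbb-bt, Hbb-bs, Alas2 and Hba-a1 (sum 1957 to 2964 CPM in DEN, 5070 to 10200 CPM in Sham). Smooth muscle and pericyte markers had 1 of 12 called higher (Kcnj8) and 4 lower (Myh11, Mylk and Lmod1 among them), with sums of 11263 to 11845 CPM in DEN and 10882 to 13685 CPM in Sham, and DESeq2 called 9 of them. Fibro-adipogenic progenitor markers had 1 of 11 called higher and 4 lower (Mfap5, Dcn, Col3a1 and Fbln1), with sums of 5807 to 6097 CPM in DEN and 6356 to 8295 CPM in Sham. No endothelial marker of 10 was called by edgeR, with 2 at an unadjusted p under 0.05 and 2 called by DESeq2 (Esam and Tek had the highest levels). Of 8 macrophage markers 1 was called by edgeR (C1qb, higher) and 0 by DESeq2, with a sum of 6.95 to 123 CPM in DEN and 17.4 to 53.8 CPM in Sham. C1qb was called in 2 of the 7 fits that left out 1 library and had an adjusted p of 0.73 without DEN replicate 2, and of 0.087, 0.090 and 0.10 without Sham replicates 1, 2 and 3. Of the other markers named, Kcnj8 and Lmod1 were called in 3 of these fits, Col3a1 and Fbln1 in 4 and Mylk in 6, with adjusted p up to 0.098 in those that lost the call. The part of these cell types in the guidance results was not tested. In bulk RNA a smaller number of cells of a type cannot be told from less RNA per cell.

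Most guidance genes were not called as changed. Of the 62 tested, 9 were called higher in DEN, 3 were called lower and 50 were not called. A call is an adjusted p under 0.05 in edgeR's quasi-likelihood test, with Benjamini-Hochberg adjustment over all 17454 genes. The 9 genes called higher were Sema4f, Ephb3, Sema3e, Ntn4, Epha5, Ntn5, Sema3a, Sema4b and Plxna4, and the 3 called lower were Efnb3, Sema3b and Sema4d. Across all genes 5.29% were called higher and 5.32% lower, against 14.5% and 4.84% of the guidance genes. The share called higher was thus above that of all genes and the share called lower close to it, which is a description of the list and not a test of it. The median log2 fold change, DEN over Sham, was -0.04 over the guidance genes and -0.0010 over all genes. Of the 50 genes not called, 40 had a log2 fold change smaller than 0.5 in size. The fold change was negative for 33 of the 50 and positive for 17.

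The groups did not overlap for 9 guidance genes that were higher in DEN and 6 that were lower, where 12.1% and 11.3% of all genes behaved in these ways. All 12 called genes were among them, and in all 12 the library of DEN replicate 1, which had no part in the test, lay beyond every Sham library on the same side. That library lay outside the range of the Sham libraries, on either side, for 41 of all 62 guidance genes tested. The matching share of all called genes is not given, so its place for these 12 genes is a description only. With all 8 libraries in the fit, 61 of the genes were tested, of which 9 were called higher (5.73% of all genes) and 4 lower (5.8% of all genes). These were the same 12 genes and Ntn1. DESeq2 called the same 9 genes higher (6.57% of all genes) and the same 3 lower (6.62% of all genes).

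**Figure D1:**
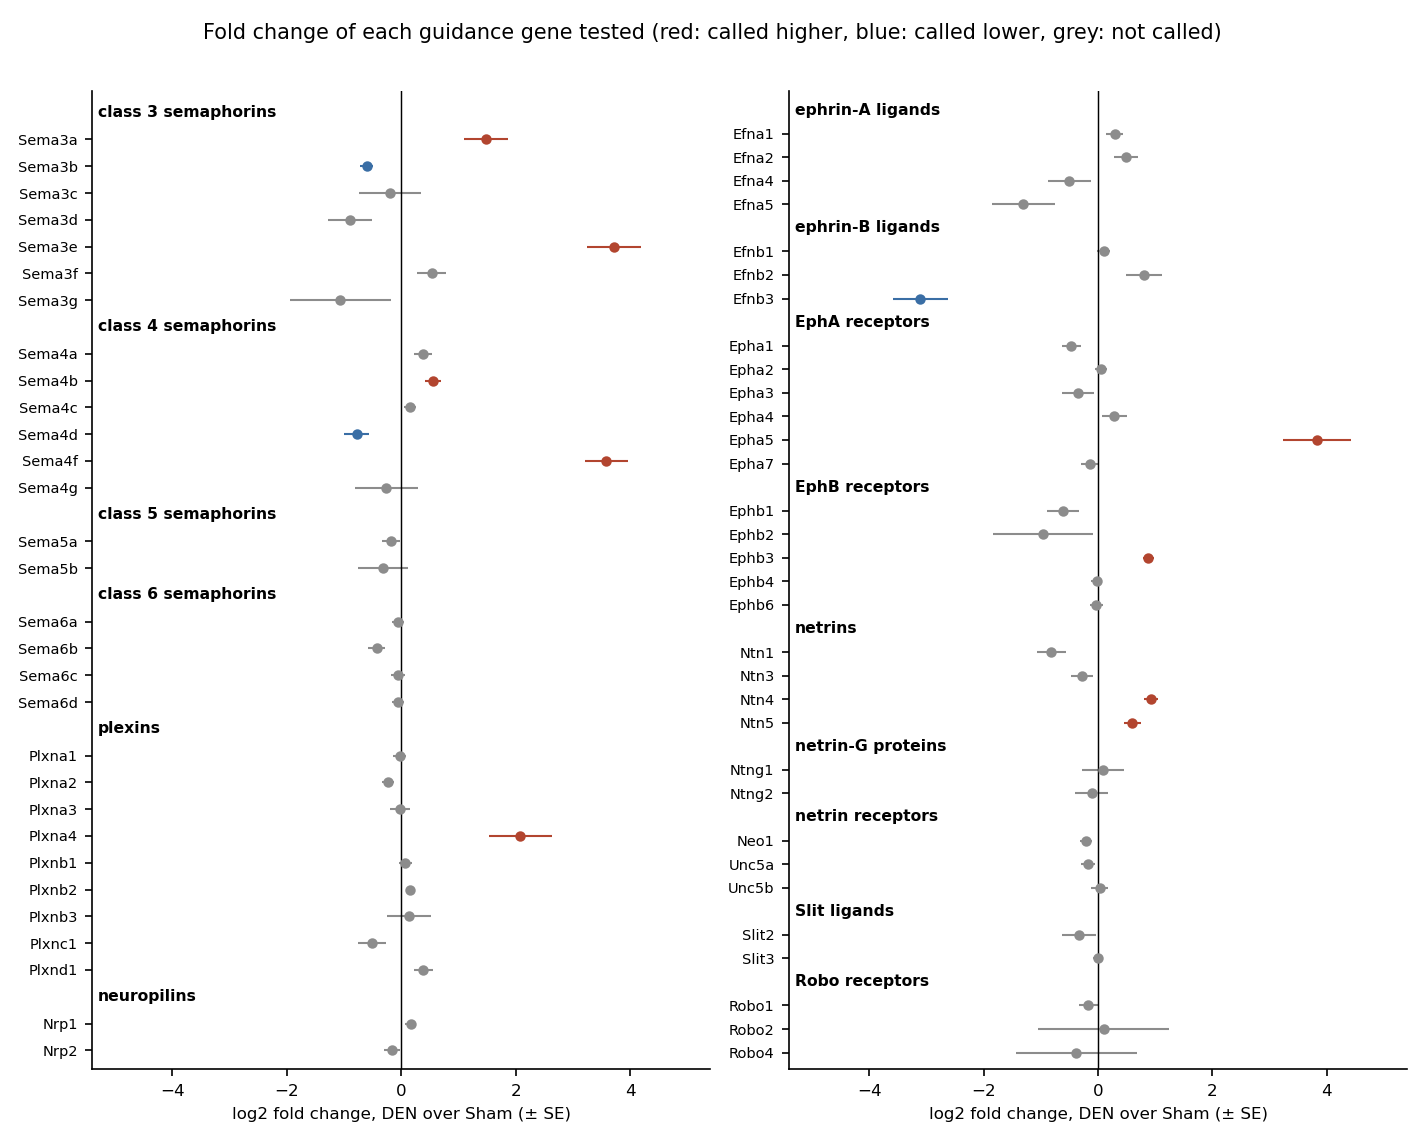
Log2 fold change, DEN over Sham, of the 62 guidance genes tested (x axis, points with standard errors, 3 DEN and 4 Sham libraries), grouped by family. The 9 genes called higher (red) and the 3 called lower (blue) stand among 50 that were not called (grey), most of which lie near 0.

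The sequences around the start sites of the genes that rose most firmly are shown first, since their members span both ligands and receptors. They belong to the genes that were called higher whichever library was left out and that have exactly 1 entry in the RefSeq promoter table (GRCm38.p6). Each runs from 250 bases before to 50 bases after the RefSeq start of the gene, on the strand of the gene. For Sema4f, Sema3e and Epha5 this is also the gene start in the GENCODE M21 annotation, while the RefSeq start lies 368 bases further into the gene for Ntn4 and 40 bases for Ephb3. Sema4f lies at chr6:82939720-82940019 on the minus strand, Sema3e at chr5:14025026-14025325 on the plus strand and Ntn4 at chr10:93640799-93641098 on the plus strand. Ephb3 lies at chr16:21204545-21204844 on the plus strand and Epha5 at chr5:84417333-84417632 on the minus strand. Capitals mark CAGCTG, an E-box of the kind bound by myogenic factors.

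Sema4f: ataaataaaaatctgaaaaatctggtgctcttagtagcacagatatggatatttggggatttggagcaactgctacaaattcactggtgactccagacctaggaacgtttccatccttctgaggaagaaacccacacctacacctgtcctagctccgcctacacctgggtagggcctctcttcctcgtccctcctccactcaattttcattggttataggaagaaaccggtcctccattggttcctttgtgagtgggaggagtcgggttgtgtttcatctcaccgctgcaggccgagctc
Sema3e: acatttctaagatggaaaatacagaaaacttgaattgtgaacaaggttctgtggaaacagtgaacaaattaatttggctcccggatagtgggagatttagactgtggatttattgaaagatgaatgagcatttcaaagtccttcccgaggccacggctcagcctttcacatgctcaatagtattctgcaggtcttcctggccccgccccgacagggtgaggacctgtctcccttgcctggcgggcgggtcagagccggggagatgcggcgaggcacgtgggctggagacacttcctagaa
Ntn4: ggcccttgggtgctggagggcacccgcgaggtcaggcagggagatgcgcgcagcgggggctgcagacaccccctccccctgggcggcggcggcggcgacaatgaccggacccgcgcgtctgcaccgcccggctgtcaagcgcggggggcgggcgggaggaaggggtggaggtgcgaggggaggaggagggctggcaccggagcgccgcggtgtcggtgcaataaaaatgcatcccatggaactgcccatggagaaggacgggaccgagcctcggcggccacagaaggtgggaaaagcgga
Ephb3: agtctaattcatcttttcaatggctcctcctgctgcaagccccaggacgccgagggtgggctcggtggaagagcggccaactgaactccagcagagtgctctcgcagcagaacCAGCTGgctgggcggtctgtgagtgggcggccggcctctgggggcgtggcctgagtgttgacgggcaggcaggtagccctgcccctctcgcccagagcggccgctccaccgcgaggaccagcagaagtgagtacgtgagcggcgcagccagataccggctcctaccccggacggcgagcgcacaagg
Epha5: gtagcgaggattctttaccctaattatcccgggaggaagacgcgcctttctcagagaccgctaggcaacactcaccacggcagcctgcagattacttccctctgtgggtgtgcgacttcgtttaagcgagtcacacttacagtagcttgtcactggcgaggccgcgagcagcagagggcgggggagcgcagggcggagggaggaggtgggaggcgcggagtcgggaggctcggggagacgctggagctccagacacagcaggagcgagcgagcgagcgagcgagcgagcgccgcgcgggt

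The windows of Ntn4, Ephb3 and Epha5 were rich in CG, with 31, 23 and 30 CpG pairs and 72.0%, 66.7% and 64.3% G or C. Those of Sema3e and Sema4f held 11 and 7 CpG pairs at 50.7% and 48.7% G or C, near the medians of all 32851 windows of the table (7 pairs and 52.7%). Of the 62 genes, 55 had an entry, giving 70 windows, and Efnb3, Ntn1, Plxna1, Plxna4, Sema3b, Sema3f and Sema6a had none. The letters CAGCTG stood in 9 of the 70 windows (12.9%, against 16.3% of all windows), which include those of Ephb3, Ntn5 and Sema4d. The AP-1 letters TGACTCA, searched on both strands as were all motifs here, stood in 2 windows (2.86%, against 5.2%), those of Sema4c and Sema6b. The CRE letters TGACGTCA stood in 1 (Epha2, 1.43%, against 1.79%) and the TEAD letters GGAATG in 10 (14.3%, against 14.7%). Thus none of these motifs was more frequent in the guidance windows than in all windows, and none of the searched motifs contains another. A match is a run of letters and not a shown binding site.

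Among the semaphorin ligands, calls fell in the secreted class 3 and the membrane-anchored class 4, in both directions in each. Sema3e, a secreted ligand that binds plexin D1 without a neuropilin, was at 15.2, 18.4 and 7.82 CPM in DEN replicates 2 to 4, against 0.756, 2.27, 0.592 and 0.509 CPM in Sham replicates 1 to 4. Every DEN library lay above every Sham library, with DEN replicate 3 highest, and DEN replicate 1 was at 8.86 CPM. The gene rose 13.1-fold (log2 fold change 3.71, SE 0.47, adjusted p = 0.00091), and stayed between 3.46 and 4.46 on the log2 scale when any 1 library was left out. Sema3a, a repulsive ligand that collapses growth cones through neuropilin 1 and plexin A receptors, was at 14.3, 4.92 and 4.42 CPM in DEN, against 2.30, 3.09, 3.37 and 2.54 CPM in Sham. The groups did not overlap, and DEN replicate 1 was at 5.22 CPM, but DEN replicate 2 stood far above the other DEN libraries. That library also had the highest level of the macrophage gene C1qb in its group (15.6 CPM, with 0.444 and 0.246 CPM in DEN replicates 3 and 4). The part of macrophage RNA in the Sema3a value was not tested. Sema3a was called higher (log2 fold change 1.48, SE 0.38, adjusted p = 0.033) and dropped to 0.73 (adjusted p = 0.11) without DEN replicate 2. It also lost its call without Sham replicate 1, 2, 3 or 4 in turn, at adjusted p = 0.067, 0.066, 0.056 and 0.078.

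Sema3b, another secreted ligand of the neuropilins, was the class 3 member that fell. It had 82.6, 73.7 and 63.3 CPM in DEN replicates 2 to 4, against 120, 116, 90.5 and 119 CPM in Sham replicates 1 to 4, and 81.2 CPM in DEN replicate 1. All DEN libraries lay below all Sham libraries, and the call (log2 fold change -0.61, SE 0.12, adjusted p = 0.011) held in each of the 7 fits that left out 1 library. Sema3b was nevertheless the most abundant class 3 transcript per length in both groups, with 77.4% to 83.6% of the summed RPKM of the class in DEN and 90.8% to 92.4% in Sham. Sema3e made up 5.31% to 9.93% of that sum in DEN and 0.20% to 0.93% in Sham. The other class 3 members tested were not called, with log2 fold changes of 0.53 for Sema3f, -0.19 for Sema3c, -0.89 for Sema3d and -1.07 for Sema3g.

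**Figure D2:**
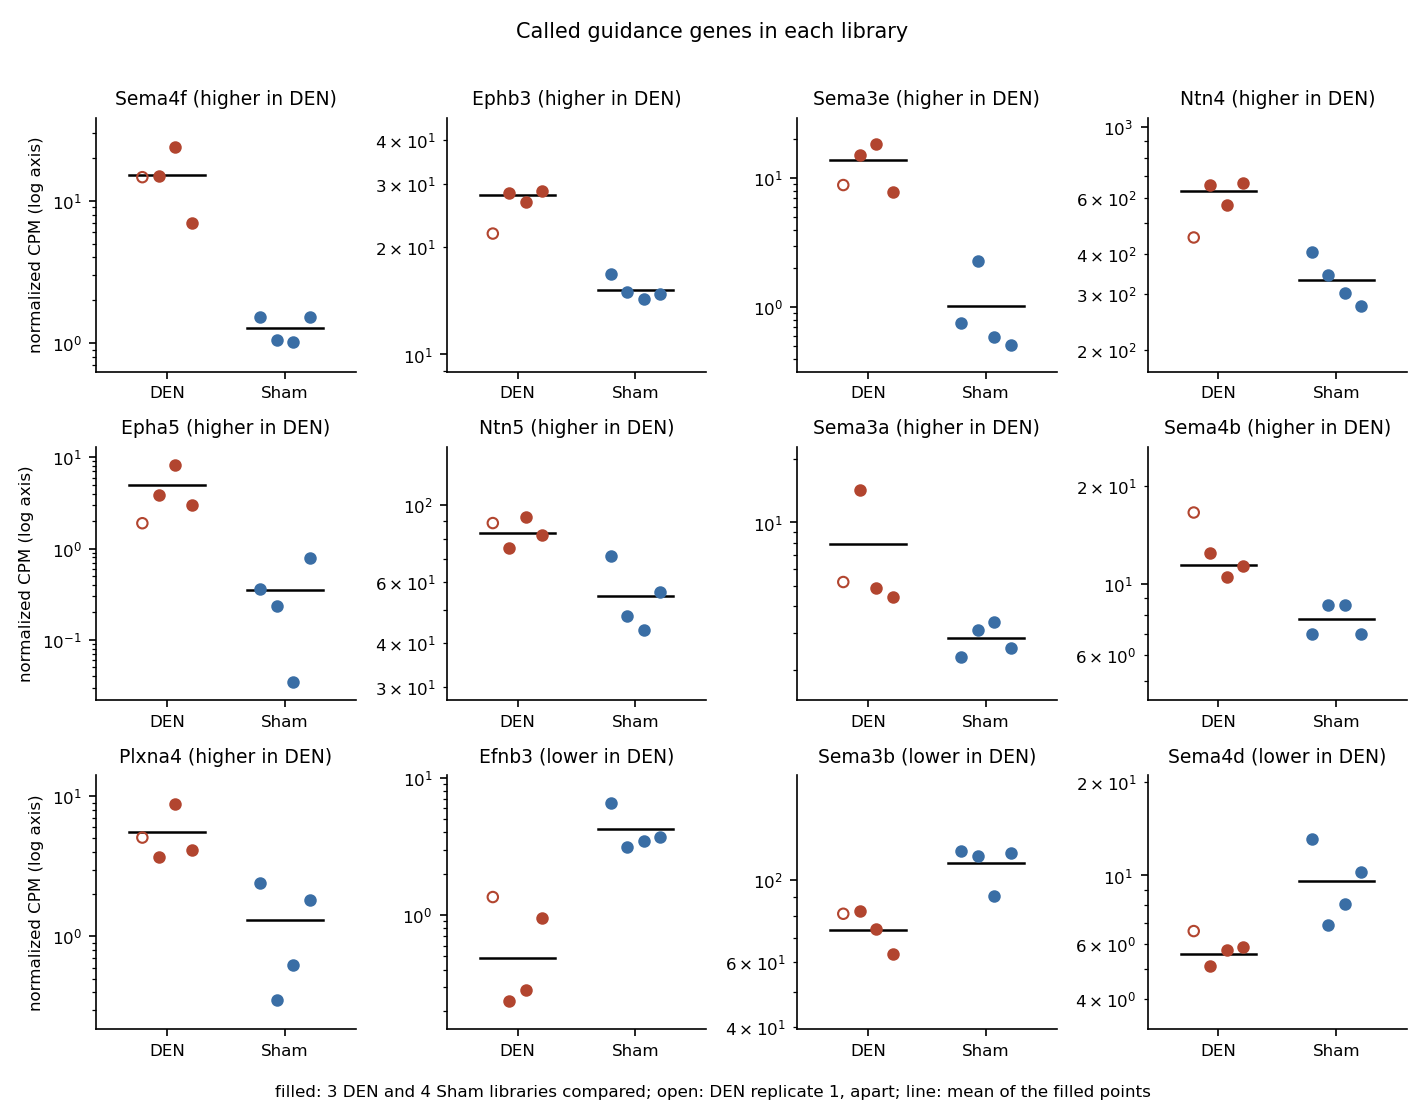
Normalized CPM (y axes, log scale) of the 12 called guidance genes in each library, DEN left of Sham, replicates in order. Filled points are the 3 DEN and 4 Sham libraries compared, lines their means and open points DEN replicate 1. In every panel the DEN and Sham points do not overlap.

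Class 4 semaphorins signal mainly through B plexins. Sema4f, which in cultured rat Schwann cells takes part in their contact with axons, was at 14.9, 24.0 and 6.95 CPM in DEN replicates 2 to 4, against 1.51, 1.05, 1.01 and 1.53 CPM in Sham replicates 1 to 4. The lowest DEN library was several times the highest Sham library, and DEN replicate 1 was at 14.7 CPM. Of all guidance genes it had the smallest adjusted p (log2 fold change 3.58, SE 0.37, adjusted p = 0.00033), with 3.10 to 3.93 when 1 library was left out. In share of the summed class 4 RPKM, Sema4f took 7.55% to 23.3% in DEN and 1.40% to 1.94% in Sham. Sema4c, which binds plexin B2 and is known from the differentiation of myoblasts, remained the most abundant of the class (54.1% to 64.7% in DEN, 67.8% to 70.4% in Sham) and was not called (log2 fold change 0.15).

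Sema4b and Sema4d moved by smaller amounts in opposite directions. Sema4b, a membrane semaphorin, was at 12.4, 10.5 and 11.4 CPM in DEN, against 6.99, 8.56, 8.59 and 6.96 CPM in Sham, with 16.6 CPM in DEN replicate 1. Sema4d, the ligand of plexin B1 that is also known from immune cells as CD100, was at 5.10, 5.74 and 5.89 CPM in DEN, against 13.2, 6.90, 8.11 and 10.2 CPM in Sham, with 6.61 CPM in DEN replicate 1. Neither gene overlapped between the groups, but both calls were close to the threshold (Sema4b log2 fold change 0.55, SE 0.14, adjusted p = 0.034, and Sema4d -0.78, SE 0.22, adjusted p = 0.047). Sema4b was called in 1 and Sema4d in 1 of the 7 fits that left out a library. Sema4b lost its call without DEN replicate 2, 3 or 4 (adjusted p = 0.13, 0.056 and 0.081) and without Sham replicate 1, 2 or 4 (0.066, 0.051 and 0.082). Sema4d lost its call without DEN replicate 2, 3 or 4 (adjusted p = 0.15, 0.11 and 0.10) and without Sham replicate 1, 3 or 4 (0.077, 0.055 and 0.098). Sema4a (0.38) and Sema4g (-0.27) were not called.

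None of the class 5 and class 6 semaphorins, which are transmembrane proteins, passed the test in edgeR or in DESeq2. At an unadjusted p under 0.05 there was 1 of these 6 genes. The class 6 genes Sema6a and Sema6d were among the most abundant guidance genes per length. Sema6a had 21.1 ± 1.12 RPKM in DEN and 22.1 ± 3.32 RPKM in Sham, and Sema6d 10.6 ± 1.08 RPKM in DEN and 11.0 ± 1.06 RPKM in Sham (SD, n = 3 and 4, as throughout for values after ±). Their log2 fold changes were -0.06 and -0.06, with 95% intervals of -0.30 to 0.18 and -0.27 to 0.16. Sema6b was lower in each DEN library than in any Sham library but was not called (log2 fold change -0.43, SE 0.15, adjusted p = 0.097). The fold changes of Sema5a, Sema5b and Sema6c were -0.18, -0.31 and -0.06 on the log2 scale.

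Among the semaphorin receptors, Plxna4 was the 1 plexin of 9 that was called. It encodes a receptor for class 3 semaphorins, with neuropilins, and for Sema6a. Its level was 3.69, 8.79 and 4.14 CPM in DEN replicates 2 to 4, against 2.42, 0.350, 0.626 and 1.83 CPM in Sham replicates 1 to 4, and 5.07 CPM in DEN replicate 1. The DEN libraries were all above the Sham libraries, again with DEN replicate 3 highest, and the log2 fold change was 2.08 (SE 0.55, adjusted p = 0.038). The call was lost in every fit that left out a library except that without Sham replicate 1. The adjusted p was 0.053, 0.15 and 0.067 without DEN replicate 2, 3 or 4, and 0.058, 0.085 and 0.057 without Sham replicate 2, 3 or 4. With no filter on low counts it was 0.11.

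The receptors that were abundant showed no call. Plxnb2 had 41.3 ± 0.453 RPKM in DEN and 37.0 ± 3.30 RPKM in Sham, the highest level per length of any receptor here. Nrp1, the coreceptor of Sema3a, had 24.6 ± 2.03 RPKM in DEN and 21.9 ± 2.25 RPKM in Sham, and Plxnd1, the receptor of Sema3e, 26.0 ± 2.85 RPKM in DEN and 19.9 ± 5.42 RPKM in Sham. The 95% intervals of their log2 fold changes were -0.01 to 0.33 for Plxnb2, -0.04 to 0.38 for Nrp1 and 0.01 to 0.77 for Plxnd1, and none of the 3 genes was called (adjusted p = 0.24, 0.31 and 0.19). Plxnd1 was at 201 CPM in Sham replicate 1 and at 113 to 142 CPM in the other Sham libraries, and without Sham replicate 1 it was called higher (log2 fold change 0.58, adjusted p = 0.0094). Plxna1 (-0.03), Plxna2 (-0.24), Plxna3 (-0.02), Plxnb1 (0.07), Plxnb3 (0.13), Plxnc1 (-0.51) and Nrp2 (-0.16) were not called. Thus the large rise of Sema3e went with no called change in its receptor with these 7 libraries.

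Among the ephrins and their receptors, 2 receptors rose and 1 ligand fell. Epha5, a receptor of the ephrin-A ligands best known from developing axons, was at 3.89, 8.19 and 2.98 CPM in DEN replicates 2 to 4, against 0.363, 0.233, 0.0348 and 0.780 CPM in Sham replicates 1 to 4. The Sham values rest on 12, 8, 1 and 23 counts, and that of Sham replicate 3 lay under a floor of 3 counts, which corresponds to 0.103 CPM in that library. DEN replicate 1, at 1.90 CPM, was also above every Sham library. The log2 fold change was 3.82 (SE 0.60, adjusted p = 0.0029), the largest among the guidance genes tested, and it ran between 3.27 and 4.52 when 1 library was left out. Even so Epha5 remained a minor EphA receptor, with 1.16% to 3.02% of the summed EphA RPKM in DEN and 0.01% to 0.30% in Sham, whereas Epha2 took 50.9% to 51.6% in DEN and 45.2% to 53.4% in Sham.

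Ephb3, a receptor of the ephrin-B ligands, had the smallest standard error among the rises. It was at 28.4, 26.7 and 28.8 CPM in DEN, against 16.8, 14.9, 14.3 and 14.7 CPM in Sham, and at 21.8 CPM in DEN replicate 1. The spread within each group was small beside the difference between them (28.0 ± 1.12 CPM in DEN and 15.2 ± 1.09 CPM in Sham, SD, n = 3 and 4). Its log2 fold change of 0.88 (SE 0.10, adjusted p = 0.00054) lay between 0.85 and 0.93 in all fits that left out a library. The 2 most abundant EphB receptors per length, Ephb4 and the kinase-inactive Ephb6, did not follow. Their log2 fold changes were -0.02 (95% interval -0.23 to 0.18) and -0.03 (-0.29 to 0.23).

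Efnb3, a transmembrane ligand of EphB receptors and of EphA4, was the guidance gene with the largest fall. It was at 0.237, 0.286 and 0.947 CPM in DEN replicates 2 to 4, against 6.50, 3.15, 3.48 and 3.73 CPM in Sham replicates 1 to 4. DEN replicate 1, at 1.35 CPM, also lay below every Sham library. The fold change was -3.11 on the log2 scale (SE 0.48, adjusted p = 0.0027), or 8.63-fold lower in DEN, and it stayed between -3.99 and -2.78 with any 1 library left out. In share of the summed ephrin-B RPKM, Efnb3 had 0.91% to 2.98% in DEN and 11.2% to 18.7% in Sham, while Efnb1 was the main transcript in both (82.5% to 91.5% in DEN, 76.1% to 82.1% in Sham).

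No other ephrin was called with the 7 libraries. Efnb2, the ligand of EphB4, was at 6.86, 10.8 and 3.79 CPM in DEN and at 3.84, 4.05, 5.29 and 3.26 CPM in Sham, so that the groups overlapped (log2 fold change 0.80, SE 0.31, adjusted p = 0.13). Without DEN replicate 4 it was called higher (1.11, adjusted p = 0.029). Efna1 (0.29), Efna2 (0.49), Efna4 (-0.50), Efna5 (-1.30) and Efnb1 (0.10) were not called. Efna5 was called lower without DEN replicate 4 (-2.29, adjusted p = 0.035) and Efna1 higher without Sham replicate 1 (0.44, adjusted p = 0.044). Of the Eph receptors not called, Epha1 did not overlap between the groups (log2 fold change -0.47, adjusted p = 0.11), but 6.01% of its exon bases are shared with Zyx on the other strand, and the counting ignored strand. Epha2 (0.05), Epha3 (-0.35), Epha4 (0.28), Epha7 (-0.14), Ephb1 (-0.61) and Ephb2 (-0.96) were not called either.

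The netrins had the highest level of all families and 2 of its 4 genes were called higher. Ntn4, a netrin of basement membranes that binds laminins, had the highest RPKM of all guidance genes, 168 ± 14.4 in DEN and 88.6 ± 15.7 in Sham (SD, n = 3 and 4). By library it was at 656, 569 and 666 CPM in DEN replicates 2 to 4, against 406, 344, 302 and 274 CPM in Sham replicates 1 to 4. The DEN libraries all exceeded the Sham libraries, and DEN replicate 1, at 450 CPM, lay between them and the Sham range. Ntn4 rose 1.90-fold (log2 fold change 0.93, SE 0.12, adjusted p = 0.0012), with a range of 0.85 to 1.04 when 1 library was left out.

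Ntn5, another secreted netrin, was at 75.2, 92.3 and 82.0 CPM in DEN, against 71.4, 47.8, 43.8 and 56.1 CPM in Sham, and at 88.8 CPM in DEN replicate 1. The groups did not overlap, with Sham replicate 1 close to the DEN libraries. It was called higher (log2 fold change 0.60, SE 0.15, adjusted p = 0.031). Of the exon bases of Ntn5, 23.42% are shared with Sec1 on the other strand, and since the counting ignored strand their reads cannot be told apart there. Sec1 itself, at 25.9, 29.5 and 27.3 CPM in DEN and 32.2, 22.2, 19.8 and 25.8 CPM in Sham, was not called (log2 fold change 0.14, adjusted p = 0.64). The call of Ntn5 was lost without DEN replicate 2, 3 or 4 (adjusted p = 0.0503, 0.11 and 0.080) and without Sham replicate 2, 3 or 4 (0.078, 0.064 and 0.062).

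Ntn1, the netrin best known as an axon attractant, went the other way. It was at 50.7, 48.9 and 40.6 CPM in DEN replicates 2 to 4, against 129, 67.5, 77.3 and 54.7 CPM in Sham replicates 1 to 4, and at 31.6 CPM in DEN replicate 1. No DEN library reached the lowest Sham library, but the spread in Sham was wide and the gene missed the threshold (log2 fold change -0.81, SE 0.25, adjusted p = 0.062). It was called lower with all 8 libraries (-0.94, adjusted p = 0.030), without Sham replicate 1 (-0.51, adjusted p = 0.043) and without Sham replicate 4 (-0.97, adjusted p = 0.026). Summed over the netrins, RPKM was 202 to 222 in DEN and 109 to 164 in Sham, with 161 in DEN replicate 1, and Ntn4 gave 75.0% to 80.2% of it in DEN and 66.5% to 73.2% in Sham. Ntn3 (-0.28) and the netrin-G proteins Ntng1 (0.09) and Ntng2 (-0.11), which are lipid-anchored and do not bind Dcc, were not called.

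**Figure D3:**
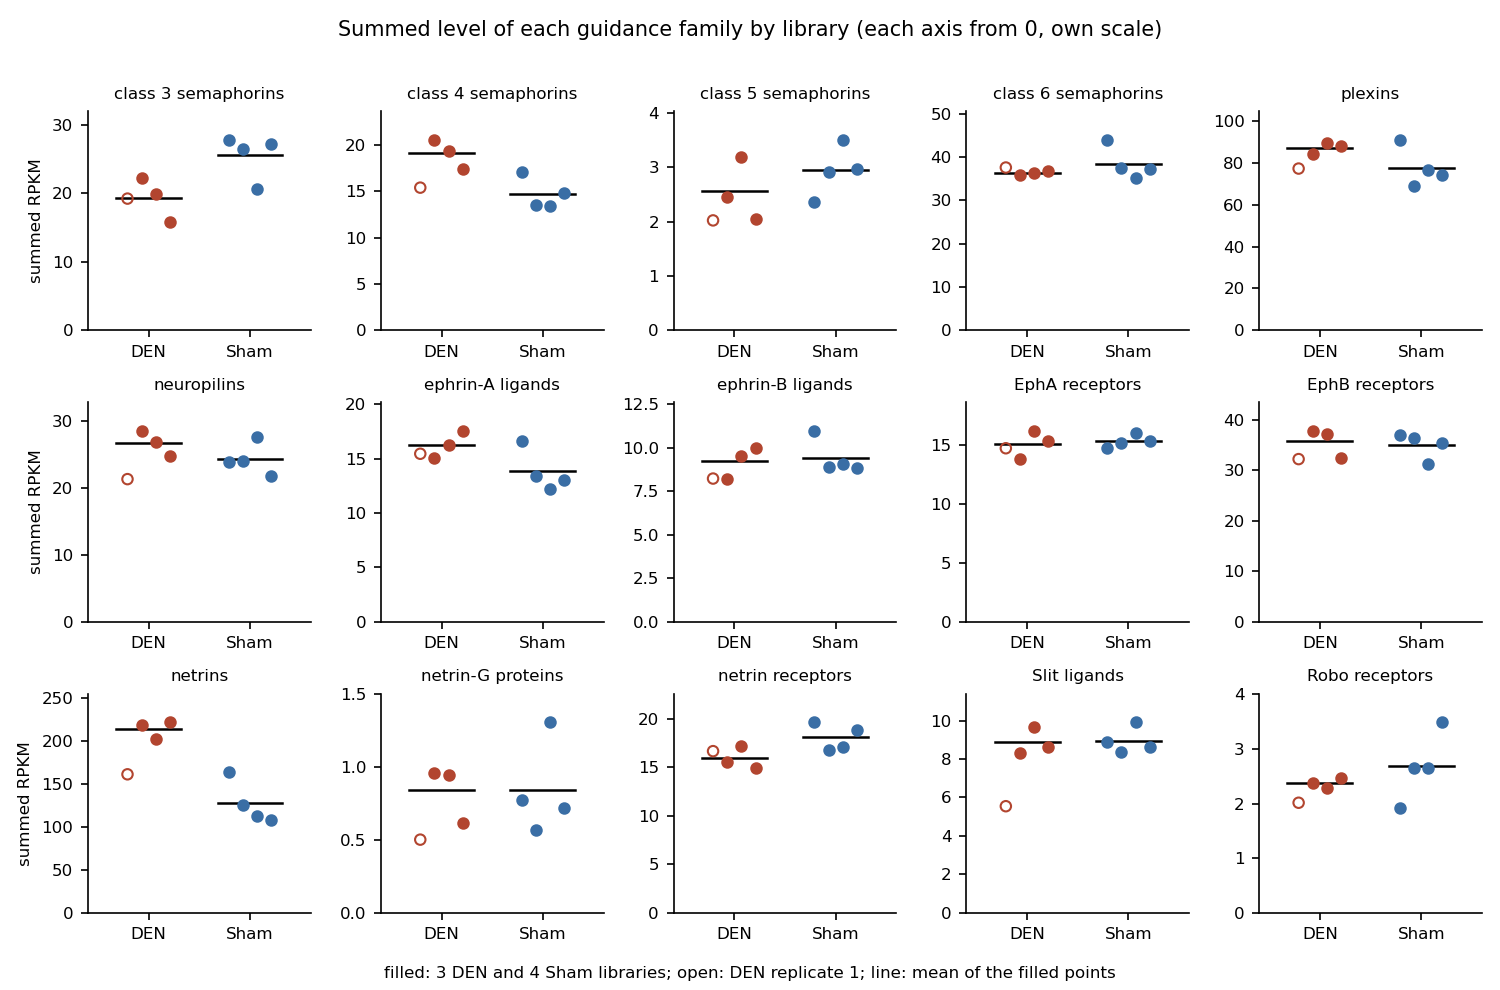
Summed RPKM of the tested genes of each guidance family (y axes from 0, each with its own scale) in each library, DEN left of Sham. Filled points are the 3 DEN and 4 Sham libraries, lines their means and open points DEN replicate 1. The netrins lie at 202 to 222 in DEN and at 109 to 164 in Sham, while the summed EphA and EphB receptors overlap between the groups.

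None of the 3 netrin receptors tested passed in edgeR or in DESeq2, and 0 had an unadjusted p under 0.05. Neo1 (neogenin), which also binds repulsive guidance molecules, was the most abundant, at 10.3 ± 0.786 RPKM in DEN and 11.9 ± 1.58 RPKM in Sham (log2 fold change -0.22, 95% interval -0.45 to 0.02, adjusted p = 0.24). Unc5a (-0.18) and Unc5b (0.03) had small fold changes, and Dcc had no count in any of the 8 libraries. The rise of Ntn4 and Ntn5 thus stood beside no called change in Neo1, Unc5a or Unc5b. Other binding partners of Ntn4, such as the laminins, are not covered by these genes.

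In the Slit and Robo system neither edgeR nor DESeq2 called a gene, and the 5 tested had 0 with an unadjusted p under 0.05. Slit3, the main Slit ligand here, was at 8.69 ± 0.663 RPKM in DEN and 8.71 ± 0.624 RPKM in Sham, and the 95% interval of its log2 fold change was -0.20 to 0.20. Robo1, the main Robo receptor, was at 37.2, 36.8 and 39.6 CPM in DEN, against 31.1, 40.8, 42.7 and 56.3 CPM in Sham (log2 fold change -0.17). Both genes overlapped between the groups. Slit2 (-0.34), Robo2 (0.10) and Robo4 (-0.38), the last of these an endothelial receptor, were also not called. Robo2 had 0, 27 and 10 counts in DEN, against 16, 32, 2 and 0 in Sham, and the 95% interval of its log2 fold change was -2.46 to 2.65. For Robo4 that interval was -2.73 to 1.96.

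The genes with the largest rises shared a pattern across libraries. Sema4f, Sema3e, Epha5 and Plxna4 were each highest in DEN replicate 3. Guidance genes that were not called, among them Efnb2, Plxna1, Sema5a, Sema6d and Slit3, also had their highest DEN value in that library. The trait is thus not particular to the 4 genes, and the share of all genes that show it is not given. The glial markers Ngfr (22.2, 26.1 and 15.5 CPM in DEN replicates 2 to 4, against 6.32, 6.03, 4.31 and 3.70 CPM in Sham), Cdh19 (20.0, 33.1 and 19.0 CPM, against 6.80, 8.30, 8.56 and 7.97 CPM in Sham) and Sox10 (24.9, 31.9 and 18.3 CPM, against 13.2, 14.9, 12.4 and 12.6 CPM in Sham) were also highest in DEN replicate 3. Ngfr, Cdh19 and Sox10 were called higher (log2 fold changes 2.06, 1.61 and 0.92), and the myelin gene Mbp was called lower (-1.64). Erbb3, chosen after its values were seen, was likewise highest in DEN replicate 3, at 20.7 CPM. In DEN replicate 1, Ngfr (11.1 CPM), Sox10 (12.2 CPM) and Erbb3 (8.74 CPM) were below the other DEN libraries, and Cdh19 (22.1 CPM) was within their range. Of the guidance genes there, Epha5 (1.90 CPM) was below the other DEN libraries. Sema4f (14.7 CPM), Sema3e (8.86 CPM) and Plxna4 (5.07 CPM) were within their range. The part of glial RNA in the rises of these 4 genes was not tested.

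**Figure D4:**
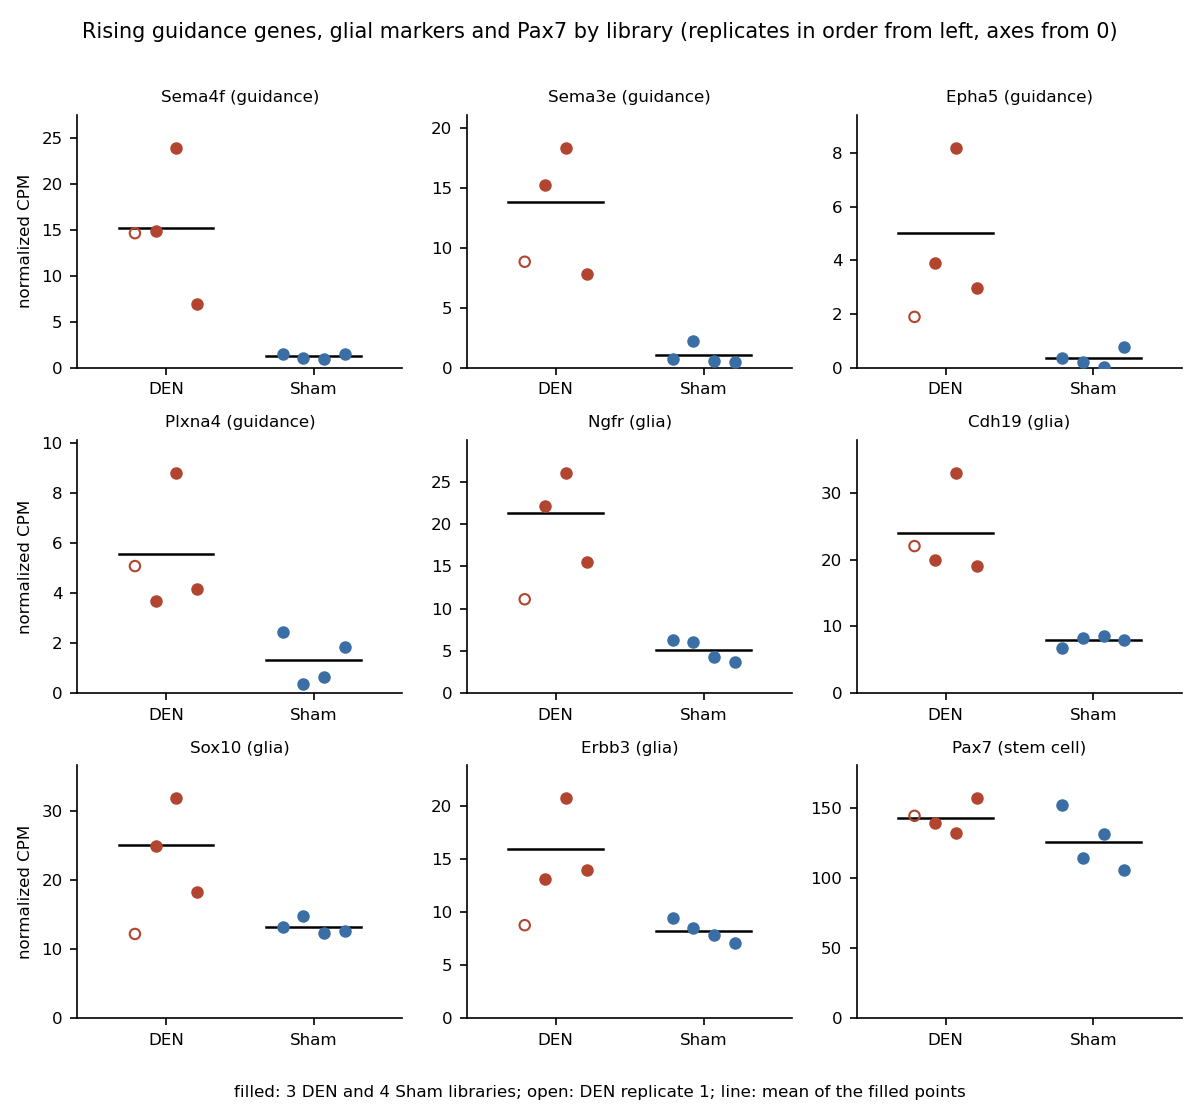
Normalized CPM (y axes from 0) of Sema4f, Sema3e, Epha5 and Plxna4, of 4 glial markers and of Pax7 in each library, DEN left of Sham, replicates in order. Filled points are the 3 DEN and 4 Sham libraries, lines their means and open points DEN replicate 1. The 4 guidance genes and the 4 glial markers are highest in DEN replicate 3 and Pax7 is not.

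How far the calls rest on single libraries was uneven. Of the 12 called genes, 7 were called in each of the 7 fits that left out 1 library (Sema4f, Ephb3, Sema3e, Ntn4, Epha5, Efnb3 and Sema3b). The other 5 (Ntn5, Sema3a, Sema4b, Plxna4 and Sema4d) lost their call in at least 1 of them but kept their direction. The number called higher was 5 without DEN replicate 2, Sham replicate 2 or Sham replicate 4, against 9 with all 7 libraries. These fits had 1 library fewer, and the share of all genes called in them is not given. The drop therefore cannot be read as particular to the guidance genes. Another 7 genes (Ntn1, Plxnd1, Efnb2, Efna1, Efna5, Sema3d and Sema3g) were called in some of these fits although not in the comparison of 7 libraries. Of these, Sema3d was called lower without Sham replicate 1 (-1.15, adjusted p = 0.031) and Sema3g lower without DEN replicate 2 (-3.39, adjusted p = 0.0496).

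**Figure D5:**
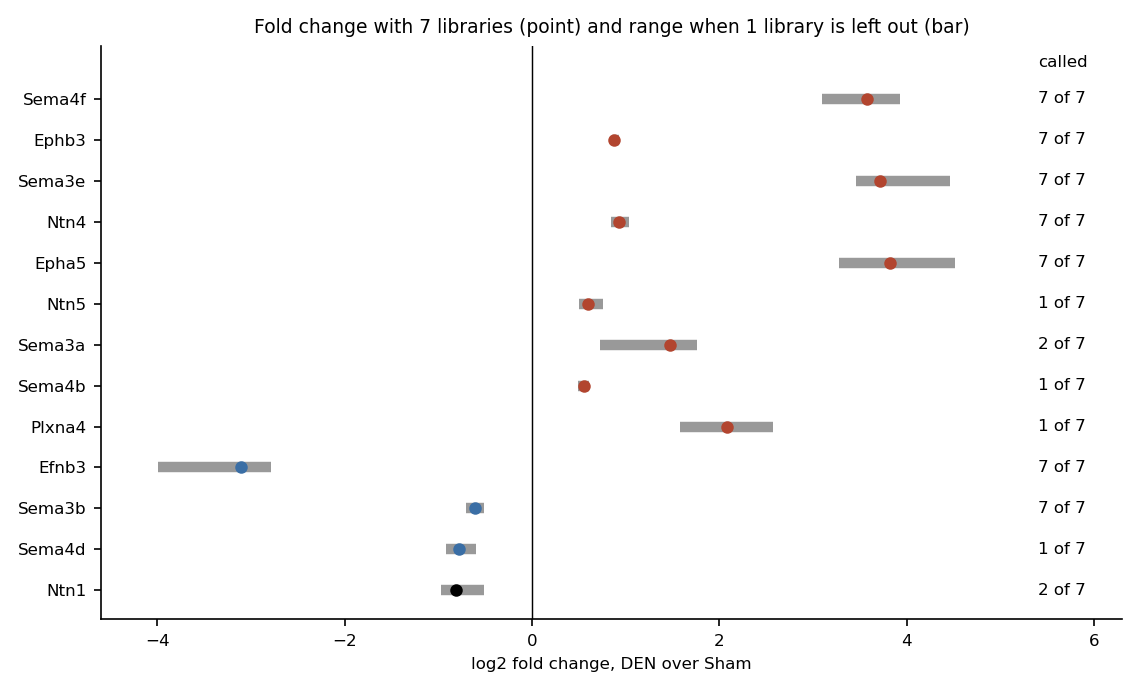
Log2 fold change, DEN over Sham (x axis), of the 12 called genes and Ntn1 with 7 libraries (points) and the range over the 7 fits that leave out 1 library (bars), with the number of those fits in which the gene was called. Sema4f, Ephb3, Sema3e, Ntn4, Epha5, Efnb3 and Sema3b were called in 7 of 7, and no bar crosses 0.

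The other genes of these pathways were described from lists of partners and effectors. Of 31 genes tested from a list of other guidance ligands and coreceptors, 4 were called higher and 4 lower. That list also holds the proteases Mmp2 and Adam10. The counts of these lists are descriptions, to be read beside the 5.29% of all genes called higher and the 5.32% called lower. Mmp2, a matrix protease, had 225 ± 26.5 CPM in DEN and 768 ± 130 CPM in Sham (SD, n = 3 and 4, log2 fold change -1.77, adjusted p = 6.6e-05). Gas1, a Hedgehog coreceptor also known from growth arrest, was called lower (-1.08), as was the leucine-rich repeat protein Lrrn1 (-1.40), while Nrcam, an adhesion molecule that joins neuropilin complexes, was called higher (1.67, adjusted p = 0.00066).

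In the list of 24 plexin and neuropilin effectors, 3 genes were called higher and none lower. The list also holds Nrarp, a Notch pathway gene, which was not called. Dpysl3, a collapsin response protein of the semaphorin pathway, was at 27.9, 34.5 and 33.3 CPM in DEN replicates 2 to 4, against 8.74, 6.67, 8.39 and 7.16 CPM in Sham replicates 1 to 4. The groups lay far apart (log2 fold change 2.04, SE 0.13, adjusted p = 3.5e-05). The small GTPases Rnd3 (0.82) and Rhod (0.70), of a class that binds plexins, were the other 2. Of 26 effectors of Eph receptors and ephrins, 2 were called higher, Rgs3 (0.73) and Sdcbp (0.52), which bind ephrin-B tails, and 3 lower, with Sipa1l1 (-0.72) and Abl1 (-0.30) among them. Sipa1l1 was called in 5 of the 7 fits that left out 1 library, and lost its call without DEN replicate 2 (adjusted p = 0.075) or Sham replicate 3 (0.053). Abl1 was called in 1 of 7, the fit without Sham replicate 3, with adjusted p between 0.065 and 0.15 in the others. Of 18 effectors of netrin receptors, Pak1 (0.73) and Cdc42 (0.31) were called higher and Enah (-0.57) lower. Cdc42 was called in 5 of 7 fits and lost its call without DEN replicate 2 (adjusted p = 0.066) or Sham replicate 2 (0.055). Enah was called in 1 of 7, the fit without DEN replicate 4, with adjusted p between 0.056 and 0.12 in the others. None of 11 Slit and Robo effectors was called by edgeR, with 2 at an unadjusted p under 0.05 and 1 called by DESeq2. The most abundant of them were Ptprs (-0.08) and Pak2 (-0.09).

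The remaining 10 genes lay under the count limit. Dcc, Epha8 and Epha10 had no count in any library, which does not exclude a low expected level, under about 3 counts in each. Epha6, Robo3, Efna3, Slit1, Unc5c and Unc5d had at most 18 counts in any library. Sema7a, the lipid-anchored ligand of plexin C1, had 20, 57 and 3 counts in DEN replicates 2 to 4, against 1, 6, 2 and 6 in Sham replicates 1 to 4 and 0 in DEN replicate 1. Low but inside the limit were Sema4g, with 9, 13 and 3 counts in DEN and 14, 11, 6 and 11 in Sham, and Robo2, with 0, 27 and 10 counts in DEN and 16, 32, 2 and 0 in Sham. Robo4 was also low, with 19, 0 and 8 counts in DEN and 0, 22, 15 and 13 in Sham.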

How the data were processed

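MuSC RNA of 8 mice was amplified as full-length cDNA and sequenced from single ends. The deposited counts were made by the authors with bcl2fastq 2.20.0.422, cutadapt 2.1, TopHat2 2.1.0 on GRCm38 and featureCounts 1.6.5 without strand (versions from the submitters' processing notes). The handling of reads that fall on overlapping exons is not given in the sources used here. The deposited RPKM values, which the authors scaled to library size and gene length, were used only for levels compared between genes. The deposited RPM values were not used.

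Low genes were removed with filterByExpr in edgeR 4.0.16 under R 4.3.3 (minimum count 10, minimum total 15), which left 17454 of 28772 genes with a count. After TMM scaling, DEN and Sham were compared with the robust quasi-likelihood test of edgeR, with Benjamini-Hochberg adjustment over all genes tested and a threshold of 0.05. Levels are TMM-normalized CPM. Standard errors are the fold change divided by the square root of F, and 95% intervals use them with the t quantile at the degrees of freedom of the test (10.3). The biological coefficient of variation was 0.161, and libraries of 1 group differed by 15.3 to 42.7 times counting noise per gene. P-values measure the spread between mice. The test was checked on simulated data. The alternatives were DESeq2 1.42.0, RLE scaling, no filter, all 8 libraries, each library left out in turn, the replicate number as a block and a log2 fold change of at least 0.5.

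The members and lists were chosen with earlier results of these data known. All genes matching the symbol rule with 10 or more counts in 3 or more libraries are reported. Members that were called are given in every library. Each list is named by up to 4 called genes with the smallest adjusted p, or by 2 with the highest level where none was called, and exceptions are stated. Positions and exon overlaps are those of GENCODE M21, and 15 of the 62 genes share exon bases with another gene. Libraries were also compared within each group by Dixon's ratio at its 95% critical value. Values of 1 marker gene are not reported here.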

Additional observations from a re-analysis of the deposited data

Results flagged for a closer look

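Among 124 groups of 4 libraries (62 genes, DEN with replicate 1 and Sham), 9 held a library whose gap to its nearest neighbor exceeded Dixon's 95% critical value, where chance gives about 1 in 20. Sema3a was at 14.3 CPM in DEN replicate 2, against 4.42 to 5.22 CPM in the other DEN libraries. In the same library Sema3g was at 2.26 CPM and Plxnb3 at 5.24 CPM, each above the rest of DEN. In Sham replicate 1, Efnb1 (28.7 CPM) and Ephb2 (2.48 CPM) were above and Sema3d (0.756 CPM) below the other Sham libraries. In Sham replicate 2, Sema3e was high (2.27 CPM) and Plxna3 low (8.77 CPM). Sema3b was low in Sham replicate 3 (90.5 CPM). Of these genes Sema3a, Sema3b and Sema3e were called, and without the library concerned Sema3e and Sema3b kept their call and Sema3a did not.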

How the results depend on the processing

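The count of guidance genes called higher was 9 in the comparison of 7 libraries and 9 with DESeq2, RLE scaling, all 8 libraries or a log2 fold change of at least 0.5. It was 7 with no filter on low counts, where Sema3a (adjusted p = 0.052) and Plxna4 (0.11) missed the threshold, and 5 to 9 when 1 library was left out. The count called lower was 3 in the comparison, 4 with all 8 libraries and 2 to 4 when 1 library was left out. Shares of all genes called are given above only for the comparison of 7 libraries, all 8 libraries and DESeq2. The counts of the other fits have no such share beside them. The median log2 fold change was -0.04 and lay between -0.11 and 0.01 when 1 library was left out. Replicate numbers did not pair the libraries, since the correlations of same-numbered DEN and Sham libraries were -0.0082, 0.0075 and -0.057. With the replicate number as a block, 8 genes were called higher and 3 lower, Plxnd1 (adjusted p = 0.0085) and Ntn1 (0.019) gaining a call and Sema3a (0.079), Sema4b (0.12) and Sema4d (0.092) losing theirs. With DEN replicate 1 apart, Sham replicate 1 was alone in its block and had no part in the fold changes of that fit. Plxnd1 and Ntn1 were also called in the fit without Sham replicate 1. No called gene changed direction under any alternative. With 3 against 4 libraries, low genes such as Robo2, Robo4 and Sema4g have intervals too wide to show differences as small as those called for Ntn5 or Sema4b.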
